A study of Mus musculus with 8 samples.

Results

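The 10 genes described here are Trp53, which encodes the transcription factor p53, and 9 genes that p53 activates directly (Mdm2, Cdkn1a, Bbc3, Bax, Pmaip1, Ccng1, Trp53inp1, Zmat3 and Aen). They were taken by name, and their probes were found through the RefSeq transcript that each probe carries. All 10 were on the array, and all 10 are among the 22685 features tested. Expression was measured once per RNA sample on 8 one-colour arrays of mouse cells of the C57BL/6J strain. Induced pluripotent stem cells (iPSCs) labelled OSKH were on 4 arrays and those labelled OSK, the control group of the series, on 3, with 1 array of the B6J-23 embryonic stem cell (ESC) line. The letters are read here as the reprogramming factors Oct4, Sox2 and Klf4 and, for H, the oocyte linker histone H1foo, although the labels do not spell them out. The labels give no age, treatment or time for any group. Nor is it stated that the replicates came from separate cell lines or dishes, so a p-value here covers the variation among these 8 samples alone, and that variation may be technical.

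p53 is a guardian of genome integrity that answers DNA damage and other stress by switching on genes for cell cycle arrest, DNA repair and apoptosis. Its activity is set mainly at the protein level, because Mdm2, itself a p53 target, binds p53 and marks it for degradation, which closes a negative feedback loop. The transcripts of its targets are therefore commonly used as a readout of p53 activity, while its own transcript is not. In reprogramming, p53 and its targets act as a barrier, since loss of p53 raises the yield of iPSCs. In ESCs, active p53 can promote differentiation and the death of damaged cells.

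A level is the log2 of a probe's signal after subtraction of the log2 75th percentile of its array. A level of 0 therefore means a signal equal to that percentile. Differences are on the same scale, and their standard errors (SE) were estimated by limma. A level belongs to its probe, so levels are compared between arrays and never between genes. All 8 arrays lay on 1 slide. Its row 1 carried OSKH 1 to 3 beside ESC, whereas OSKH 4 shared row 2 with all 3 OSK arrays. The 10 markers of pluripotent cells were well above background on all 8 arrays. The summed linear level of these markers, in units of the 75th percentile, ran from 601 to 885 on OSKH arrays, from 660 to 748 on OSK arrays and was 798 on ESC. The sum of 10 mesoderm and endoderm markers was 40.0 on OSKH 4, with all 10 above background there. The same sum ran from 0.7 to 1.6 on OSKH 1 to 3 and from 0.5 to 0.6 on OSK arrays, and was 3.9 on ESC. The sum of 10 fibroblast markers was 25.0 on OSKH 4, 8.6 to 13.6 on the other OSKH arrays, 5.6 to 10.6 on OSK arrays and 23.2 on ESC. The part of these other cell types in the results below was not tested. Differences without OSKH 4 are given for each of the 10 genes and each list in the comparison of OSKH with OSK, and as the median of the 10 genes against ESC.

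p53 binds DNA at response elements built from a 10-base unit that usually occurs as a tandem pair. The unit was written as RRRCWWGYYY (R is A or G, W is A or T, Y is C or T), and no mismatch was allowed. It was searched in RefSeq promoter windows of build GRCm38.p6 that run from 250 bases before to 50 bases after a transcript start. These sequences are shown because they hold the letters through which the named protein could act on its own targets and on Trp53. Of the 10 genes, 7 had a window, and 6 of these 7 held the unit in at least 1 window. The exception was Bbc3. Among all genes with a window, 9.6% held it, and the genes were chosen here as known p53 targets. A spacer of up to 13 bases was allowed within a pair, and the consensus equals its own reverse complement, so both strands are covered. The 7 genes had 11 windows, of which 7 held the unit. The sequences come from 1 window per gene, so not every window with the unit is shown. Capitals mark the unit, and each sequence is given 5′ to 3′ on the strand of its gene.
Cdkn1a, chr17:29090886-29090957, plus strand: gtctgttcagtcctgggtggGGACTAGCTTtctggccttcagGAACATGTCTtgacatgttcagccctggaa
Mdm2, chr10:117710915-117710964, minus strand: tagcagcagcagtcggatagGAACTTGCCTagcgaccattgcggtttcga
Trp53, chr11:69580264-69580313, plus strand: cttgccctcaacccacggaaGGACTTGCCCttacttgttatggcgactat
Ccng1, chr11:40755442-40755491, minus strand: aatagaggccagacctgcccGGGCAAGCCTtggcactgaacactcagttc
Bax, chr7:45467070-45467119, minus strand: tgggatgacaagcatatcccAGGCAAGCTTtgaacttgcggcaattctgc
Aen, chr7:78895917-78895966, plus strand: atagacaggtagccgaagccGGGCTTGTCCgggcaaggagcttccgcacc
Cdkn1a was the only one of the 7 genes with a pair of exact matches, with a spacer of 12 bases. Such a pair was found in 24 of 32851 windows, or 0.073%. The Cdkn1a pair lies just before the more upstream of 2 Cdkn1a starts in the table, which are 2790 bases apart. Near matches are not marked. The 10 bases directly after the second Cdkn1a unit miss the consensus in 1 letter, as do those directly before the Ccng1 unit. Which stretch acts as the element was not tested. In Mdm2 the unit begins 186 bases before the start, in Ccng1 185, in Bax 201, in Aen 121 and in Trp53 75. A match of letters does not show that p53 binds there, and a window without one says nothing about elements elsewhere in the gene.

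The transcript of p53 itself differed little between the groups, whereas that of its degrading ligase was lower in OSKH than in OSK cells on most arrays. Trp53 had levels of 2.12, 1.90, 1.89 and 2.20 on OSKH 1 to 4, against 2.18, 2.10 and 2.06 on OSK 1 to 3 and 1.98 on ESC. The OSKH values lay on both sides of the OSK values. The difference of OSKH minus OSK was -0.09 (SE 0.10), with a 95% interval of -0.34 to 0.16. Mdm2 had levels of 4.81, 4.99, 4.93 and 4.59 on OSKH 1 to 4, against 5.47, 5.44 and 4.99 on OSK 1 to 3 and 5.06 on ESC. OSK 1 and 2 were above every OSKH array, while OSK 3 met OSKH 2. Mdm2 was 1.39-fold lower in OSKH (log2 difference -0.47, SE 0.16, limma adjusted p = 0.732). Since each array holds RNA of many cells, fewer cells with a transcript and less of it per cell cannot be told apart. Ccng1, the cyclin G1 gene, whose product recruits a phosphatase to Mdm2, had levels of 1.97, 2.71, 2.78 and 2.55 on OSKH 1 to 4, against 2.84, 2.77 and 2.76 on OSK 1 to 3 and 2.20 on ESC. The 3 OSK arrays were within 0.08 of each other, and OSKH 1 and ESC were the lowest. Its difference of -0.29 (SE 0.20) was -0.11 without OSKH 1.

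Cdkn1a encodes p21, the inhibitor of cyclin-dependent kinases through which p53 arrests the cell cycle, and it had the widest range of the 10 genes. Its levels were 1.04, 1.87, 2.27 and 1.73 on OSKH 1 to 4, against 2.59, 2.23 and 2.12 on OSK 1 to 3 and 1.38 on ESC. OSKH 1 was the lowest array, below ESC, and OSKH 3 lay among the OSK arrays. OSKH averaged 1.73 ± 0.51 (SD, n = 4) and OSK 2.31 ± 0.25 (SD, n = 3). The log2 difference was -0.58 (SE 0.29), a 1.5-fold lower level in OSKH, with a 95% interval of -1.26 to 0.10 and a limma adjusted p of 0.811. Without OSKH 1 it was -0.35. A dimmer probe, on another RefSeq transcript of Cdkn1a, gave -2.55, -1.81, -1.88 and -2.57 on OSKH 1 to 4, against -1.10, -1.71 and -1.69 on OSK 1 to 3 and -2.14 on ESC. On this probe all OSKH arrays were below all OSK arrays, by 0.71 on average. Zmat3, which encodes an RNA-binding zinc finger protein that restrains growth downstream of p53, had levels of 2.75, 3.12, 3.33 and 2.88 on OSKH 1 to 4, against 3.35, 3.08 and 3.31 on OSK 1 to 3 and 3.07 on ESC. The groups overlapped, and its difference of -0.23 (SE 0.16) was -0.14 without OSKH 1.

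**Figure D1:**
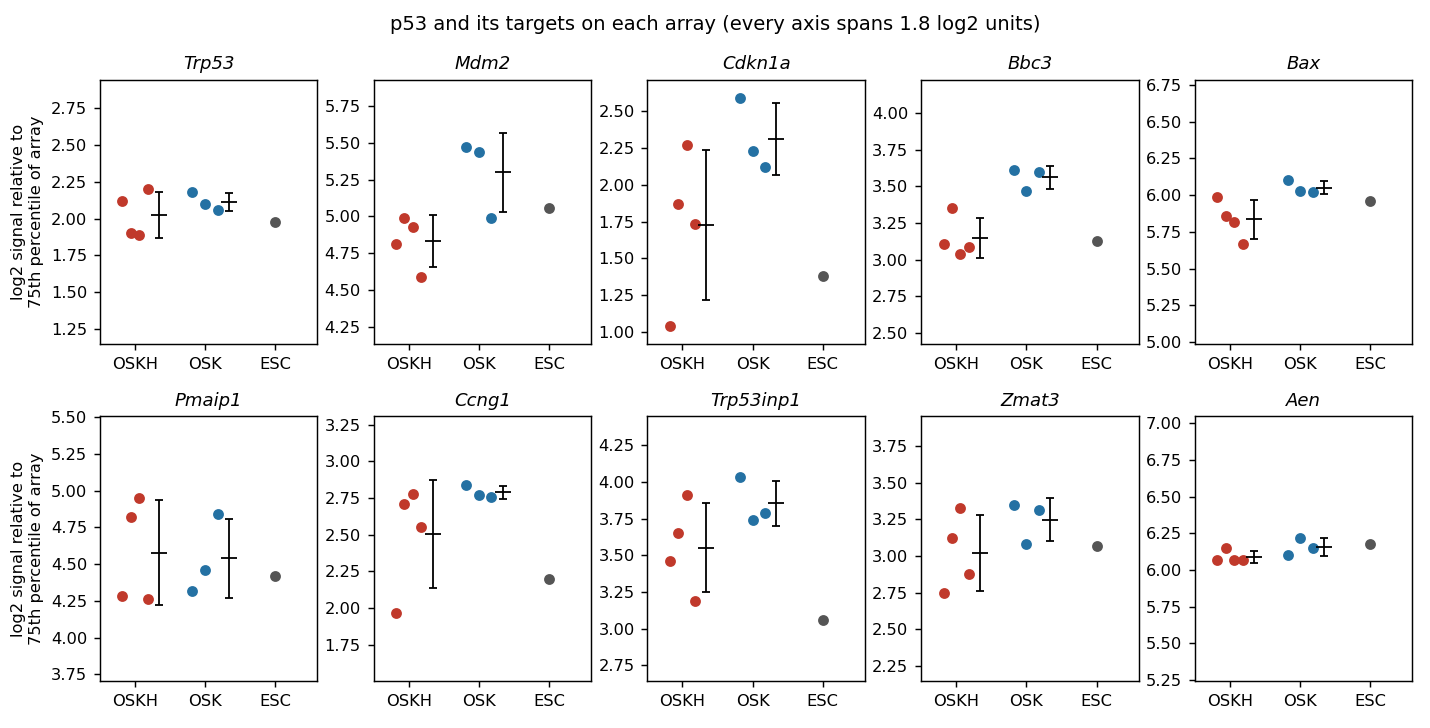
Levels of the 10 genes, each in a panel, in log2 units above the array's 75th percentile. Points are arrays (4 OSKH, 3 OSK, 1 ESC), the dash and whiskers beside a group are its mean and SD, and every vertical axis covers the same span. In Bbc3 and Bax the OSKH points all lie below the OSK points, and in every other gene the groups meet or overlap.

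Among the genes of cell death, Bbc3 and Bax separated the groups without overlap, and in Pmaip1 the groups overlapped throughout. Bbc3 encodes Puma, a protein that triggers apoptosis by neutralising the survival proteins of the Bcl2 family. It had levels of 3.11, 3.35, 3.04 and 3.09 on OSKH 1 to 4, against 3.61, 3.47 and 3.60 on OSK 1 to 3 and 3.13 on ESC. ESC lay among the OSKH arrays, and the OSK arrays were above both. Bbc3 was 1.33-fold lower in OSKH than in OSK (log2 difference -0.41, SE 0.10, limma adjusted p = 0.732). Bax encodes the protein that forms pores in the outer mitochondrial membrane. Its levels were 5.99, 5.86, 5.82 and 5.67 on OSKH 1 to 4, against 6.10, 6.03 and 6.02 on OSK 1 to 3 and 5.96 on ESC. The gap between OSKH 1 and the nearest OSK array was small beside the range within OSKH, and the difference was -0.21 (SE 0.09). Pmaip1 encodes Noxa, which binds the survival protein Mcl1. Its levels were 4.28, 4.82, 4.95 and 4.26 on OSKH 1 to 4, against 4.32, 4.46 and 4.84 on OSK 1 to 3 and 4.42 on ESC. High and low arrays occurred in both groups, and the difference of 0.04 (SE 0.22) had a 95% interval of -0.49 to 0.57.

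Trp53inp1, a nuclear stress protein that promotes p53 phosphorylation, had levels of 3.46, 3.65, 3.91 and 3.19 on OSKH 1 to 4, against 4.03, 3.74 and 3.79 on OSK 1 to 3 and 3.06 on ESC. OSKH 3 lay among the OSK arrays and the other 3 OSKH arrays below them, and ESC was the lowest of all 8. The difference was -0.30 (SE 0.18), and -0.18 without OSKH 4. A dimmer probe of the gene gave -0.20. On that probe ESC was at -0.10, above OSKH 1, 2 and 4 at -0.17, -0.14 and -0.33. Aen, the apoptosis-enhancing nuclease, varied least. Its levels were 6.07, 6.15, 6.07 and 6.07 on OSKH 1 to 4, against 6.10, 6.22 and 6.15 on OSK 1 to 3 and 6.18 on ESC, so OSKH 2 lay among the OSK arrays. The difference was -0.06 (SE 0.07) on the brighter Aen probe and -0.09 on the other.

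Counted together, 9 of the 10 genes were lower in OSKH than in OSK, with a median difference of -0.26. Over all features, 53.7% were lower and the median was -0.01. Limma called 0 of the 10 genes at an adjusted p under 0.05, as it called 0 of 22685 features (0% in this comparison), and the smallest adjusted p among the 10 was 0.732. At an unadjusted limma p under 0.05 there were 2 of the 10, Mdm2 (0.0209) and Bbc3 (0.00489), both lower in OSKH, beside 3.29% of all features lower at that level. Groups without overlap, with OSKH below, were found in 2 of the 10, Bbc3 and Bax, beside 4.19% of all features. The 10 genes were put together with earlier results of these arrays known, in which a p53 list was lower in OSKH, so these counts are a description and no independent evidence. Without OSKH 4 the median difference was -0.18 and without OSKH 1 it was -0.20, with 9 of 10 genes lower each time. Without OSKH 4, Mdm2 and Bbc3 each differed by -0.39, Bax by -0.16, Cdkn1a by -0.59, Ccng1 by -0.31, Trp53inp1 and Zmat3 each by -0.18, Trp53 by -0.14, Aen by -0.056 and Pmaip1 by 0.14. Trp53 was at -0.04 without OSKH 3, and Aen at -0.033 without OSK 2. Pmaip1, the exception, was also lower in OSKH when OSKH 2, OSKH 3, OSK 1 or OSK 2 was left out.

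Slide row and group were partly confounded, and the comparison within slide row 2 rests on OSKH 4 alone. A fit with slide row as a block therefore gives, for OSKH minus OSK, the difference of OSKH 4 from the OSK arrays. Within that row, OSKH 4 was below all 3 OSK arrays in 9 of the 10 genes, with a median difference of -0.38. The share of all features with OSKH 4 below all 3 OSK arrays was not counted, so the 9 of 10 is a description only. The widest differences of OSKH 4 minus OSK there were -0.72 for Mdm2, at 4.59 against 5.30, and -0.67 for Trp53inp1, at 3.19 against 3.86. Bbc3 differed by -0.47, Bax by -0.38 and Pmaip1 by -0.29. Trp53 was the exception, at 2.20 on OSKH 4, above all 3 OSK arrays. With slide row as a block, limma called 0 of the 10 genes and 47 of all features (0.207%), and Mdm2 had an adjusted p of 0.351 within a range of 0.351 to 1.0 over all alternatives. OSKH 4 was also the array with the highest sum of mesoderm and endoderm markers, while its fibroblast marker sum was close to that of ESC, as given above.

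**Figure D2:**
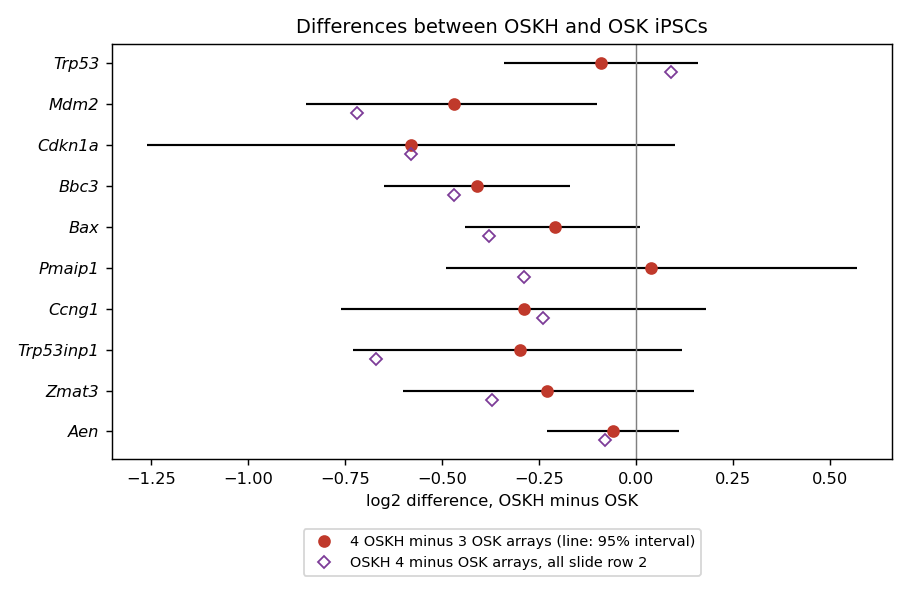
Log2 differences of OSKH minus OSK for the 10 genes. Filled circles are the difference between 4 OSKH and 3 OSK arrays, lines are its 95% intervals from limma, and open diamonds are OSKH 4 minus the mean of the 3 OSK arrays of the same slide row. All intervals except those of Mdm2 and Bbc3 include 0, and the diamonds of Trp53 and Pmaip1 lie on the other side of 0 from their circles.

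The targets also differed among the OSKH arrays themselves. Relative to the mean of the 7 iPSC arrays, the median deviation of the 9 targets was -0.22 on OSKH 1, 0.0 on OSKH 2, 0.15 on OSKH 3 and -0.25 on OSKH 4. On OSK 1 to 3 it was 0.23, 0.11 and 0.14, and on ESC -0.15. OSKH 1 and 4 therefore stood apart from OSKH 2 and 3, and OSKH 3 was within the span of the OSK arrays. Of the 9 targets, 5 had their lowest iPSC level on OSKH 4 and 3 on OSKH 1 (Cdkn1a, Ccng1 and Zmat3), while 7 had their highest on OSK 1. Neither these counts nor the medians per array were compared with those of all features, so they are a description only. The Trp53 transcript ran differently, with its highest deviation on OSKH 4 (0.14) and its lowest on OSKH 3 (-0.18) and OSKH 2 (-0.16).

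**Figure D3:**
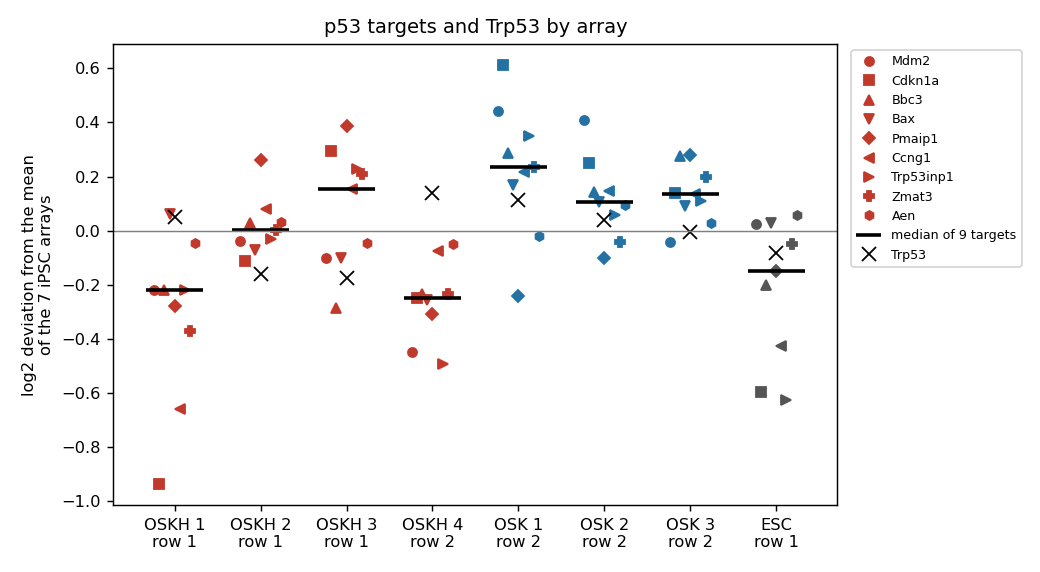
Deviation of each gene from its mean over the 7 iPSC arrays, in log2 units, by array with its slide row. Coloured symbols are the 9 targets, the bar is their median, and the cross is Trp53. Medians are at -0.22 and -0.25 on OSKH 1 and 4 and between 0.11 and 0.23 on the OSK arrays, and the Trp53 crosses do not follow the bars.

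Against ESC, the OSKH arrays lay around the ESC level of these genes and the OSK arrays mostly above it. On the brightest probes, ESC was within the OSKH values for 7 of the 10 genes, above them for Mdm2 and Aen and below them for Trp53inp1. On the dimmer probes of Aen and Trp53inp1, ESC lay within the OSKH values. ESC was below all 3 OSK arrays for 7 of the 10 genes and within the OSK values for Mdm2, Pmaip1 and Aen. The share of all features with ESC in these positions was not counted, so these counts are a description only. The median difference of the 10 genes was 0.03 for OSKH minus ESC, where all features had a median of -0.05, and 0.21 for OSK minus ESC, where the median of all features was also -0.05. For OSKH minus ESC, 6 genes were higher and 4 lower. For OSK minus ESC, 9 were higher and 1, Aen, lower. Over all features, 59.9% were lower for OSKH minus ESC and 57.3% for OSK minus ESC. The widest differences of OSK minus ESC were Cdkn1a at 0.93 (SE 0.43), Trp53inp1 at 0.80 (SE 0.27), Ccng1 at 0.59 (SE 0.30) and Bbc3 at 0.43 (SE 0.15). For OSKH minus ESC these 4 were at 0.34 (SE 0.42), 0.50 (SE 0.26), 0.30 (SE 0.29) and 0.02 (SE 0.15). Single arrays moved these values, with Cdkn1a at 0.16 without OSKH 3 and 0.57 without OSKH 1, Ccng1 at 0.48 without OSKH 1 and Bbc3 at -0.046 without OSKH 2. On the dimmer probes, OSKH minus ESC was -0.07 for Cdkn1a and -0.02 for Trp53inp1. For OSK minus ESC those probes gave 0.64 and 0.18. Without OSKH 4 the median of the 10 genes for OSKH minus ESC was 0.019. These comparisons share the ESC array, and OSK minus ESC shares the OSK arrays with OSKH minus OSK, so that 1 group's values enter each pair. Limma called 0 of the 10 genes and 0% of all features in either comparison, with smallest adjusted p-values among the 10 of 0.999 for OSKH minus ESC and 0.792 for OSK minus ESC. The ESC group has 1 array, so the test assumes that ESC arrays would vary like iPSC arrays. Within slide row 1, the mean of OSKH 1 to 3 was above ESC in 5 of the 10 genes, with a median difference of 0.02. In Trp53inp1 alone were all 3 arrays above it, and only on its brighter probe. OSK and ESC lay in different rows, and with row as a block the median of OSK minus ESC was 0.52. That value rests on the difference between OSKH 4 and OSKH 1 to 3, the only link between the rows.

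By group mean, the order was OSK, OSKH, ESC in 5 genes (Trp53, Cdkn1a, Bbc3, Ccng1 and Trp53inp1) and OSK, ESC, OSKH in 3 (Mdm2, Bax and Zmat3). Pmaip1 was highest in OSKH and Aen in ESC. On the brightest probes, OSK stood above OSKH without overlap in Bbc3 and Bax only. ESC stood outside the OSKH values in Mdm2, Aen and Trp53inp1 only on these probes. In the other genes, at least 1 OSKH array lay at or beyond a value of the neighbouring group.

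Other genes of the p53 network were followed in lists chosen beside the 10 genes. Of 14 further targets of arrest and repair that were tested, 6 were higher and 8 lower in OSKH than in OSK, with a median of -0.12, and limma called 0. Without OSKH 1 the counts were 2 higher and 12 lower, with a median of -0.18. With slide row as a block, which sets OSKH 4 alone against OSK, they were 1 higher and 13 lower. How many of all features were lower in that fit was not counted. Its counts, here and in the lists below, are therefore a description only. Without OSKH 4 the counts were 6 higher and 8 lower, and the median was -0.06. Plk3, a polo-like kinase of the stress response, averaged 2.81 ± 0.46 over the 4 OSKH arrays and 3.49 ± 0.27 (SD) over the 3 OSK arrays. Its difference was -0.67 (SE 0.26), and -0.51 without OSKH 4, its lowest array at 2.31. The groups overlapped, with OSKH 1 at 3.4 and OSK 3 at 3.18. Polk, a DNA polymerase that copies past lesions, differed by -0.39 (SE 0.16), and by -0.29 without OSKH 1. On OSKH 4 it was 0.12 below the OSK mean. On the other side, Ddit4, an inhibitor of mTORC1 signalling, was at 5.64, 4.26, 5.31 and 4.21 on OSKH 1 to 4, against 4.44, 4.39 and 4.21 on OSK 1 to 3. Its difference of 0.51 (SE 0.38) thus rests on OSKH 1 and 3 and was 0.24 without OSKH 1. Xpc, a sensor of DNA lesions, differed by 0.07 (SE 0.09), and by 0.01 without OSKH 3.

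Of 19 further targets of death and metabolism, 6 were higher and 13 lower in OSKH than in OSK, with a median of -0.11 and 0 called by limma. The median was -0.07 without OSKH 1 and -0.09 without OSKH 4. Ei24, a protein of the endoplasmic reticulum, was at 1.54, 1.34, 1.34 and 1.38 on OSKH 1 to 4, against 2.14, 1.76 and 1.63 on OSK 1 to 3. All its OSKH values were below all its OSK values, and the difference was -0.44 (SE 0.14). Eda2r, a death receptor of the tumour necrosis factor family, was well above background on all 3 OSK arrays but on 1 of 4 OSKH arrays only. The 3 OSK arrays were thus enough for it to be tested. Its difference of -0.68 (SE 0.23) rests on OSKH levels mostly not well above background, so its size is uncertain. Tnfaip8 differed by 0.43 (SE 0.14), with all OSKH arrays above all OSK arrays, a separation found in 715 of 22685 features. Tigar, a regulator that lowers glycolytic flux, differed by 0.27 (SE 0.14), and by 0.18 without OSKH 4.

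The 20 regulators of p53 had a median difference of -0.04, with 8 higher and 12 lower in OSKH, and 0 called by limma. It was -0.06 without OSKH 1 and -0.05 without OSKH 4. Cdkn2a, whose Arf product holds Mdm2 away from p53, was at 0.50, 0.12, 0.02 and 0.31 on OSKH 1 to 4, against 0.97, 1.07 and 1.22 on OSK 1 to 3 and 0.55 on ESC. It had the lowest p of the network genes (log2 difference -0.85, SE 0.14, limma adjusted p = 0.519), and its OSKH 4 value was 0.78 below the OSK mean in the same slide row. Among the iPSC arrays, Cdkn2a was highest on the 3 OSK arrays, where the median deviation of the targets was 0.11 to 0.23. Within OSKH it was lowest on OSKH 3, where that median was highest of the 4 (0.15). Which Cdkn2a transcript the probe reads was not examined, so its level is not a measure of the Arf product alone. Hipk2, a kinase that phosphorylates p53, differed by -0.19 (SE 0.10), Ep300, an acetyltransferase and coactivator of p53, by 0.14 (SE 0.08) and Cop1, a ubiquitin ligase for p53, by 0.11 (SE 0.09). The p53 relatives Trp63 and Trp73 differed by 0.05 (SE 0.15) and -0.09 (SE 0.09). The sign of Trp63 turned to -0.06 without OSK 3. Trp73 was at -0.03 without OSKH 4 and Cop1 at 0.07 without OSK 1. The median of these 2 relatives was -0.02, and -0.01 without OSKH 4.

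Of 12 Bcl2 family genes other than Bbc3, Bax and Pmaip1, 8 were higher and 4 lower in OSKH than in OSK, with a median of 0.06 and 0 called by limma. With slide row as a block, which sets OSKH 4 alone against OSK, the median was -0.05. Without OSKH 1 it was 0.02 and without OSKH 4 it was 0.08. Bak1, which forms mitochondrial pores as Bax does, was at 4.01, 4.00, 4.07 and 4.06 on OSKH 1 to 4, against 3.98, 3.80 and 3.86 on OSK 1 to 3. All OSKH values of Bak1 were above all OSK values, the opposite direction to Bax, and the difference was 0.16 (SE 0.08). Such a separation was found in 715 of 22685 features. Bid, which links death receptors to mitochondria, differed by 0.16 (SE 0.14), Bcl2l2, a survival protein, by -0.14 (SE 0.12) and Bik by -0.29 (SE 0.32). Bid was at 0.05 and Bik at 0.0 without OSKH 1, and Bcl2l2 at -0.26 without OSK 1 and -0.06 without OSK 3. Of 19 cell cycle genes that p53 is known to lower through p21, 9 were higher and 10 lower, with a median of 0.0 and 0 called by limma. Without OSKH 4 the counts were 14 higher and 5 lower, with a median of 0.02. With slide row as a block, and so with OSKH 4 alone, they were 5 higher and 14 lower, with a median of -0.08. Cdk1, the kinase of mitotic entry, differed by -0.07 (SE 0.07), Cdc20, an activator of the anaphase-promoting complex, by -0.09 (SE 0.08), Cdc25c, a phosphatase that activates Cdk1, by 0.11 (SE 0.11) and Ccna2, cyclin A2, by 0.06 (SE 0.08). Cdc25c was at 0.05 without OSK 3 and 0.20 without OSK 2, and Ccna2 at 0.03 without OSK 2 and 0.10 without OSKH 4. Relative to ESC, 17 of the 19 were lower in OSKH and 16 in OSK, with medians of -0.17 and -0.15, where 59.9% and 57.3% of all features were lower. After quantile normalization 13 and 11 of the 19 were lower, and both medians were -0.04.

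**Figure D4:**
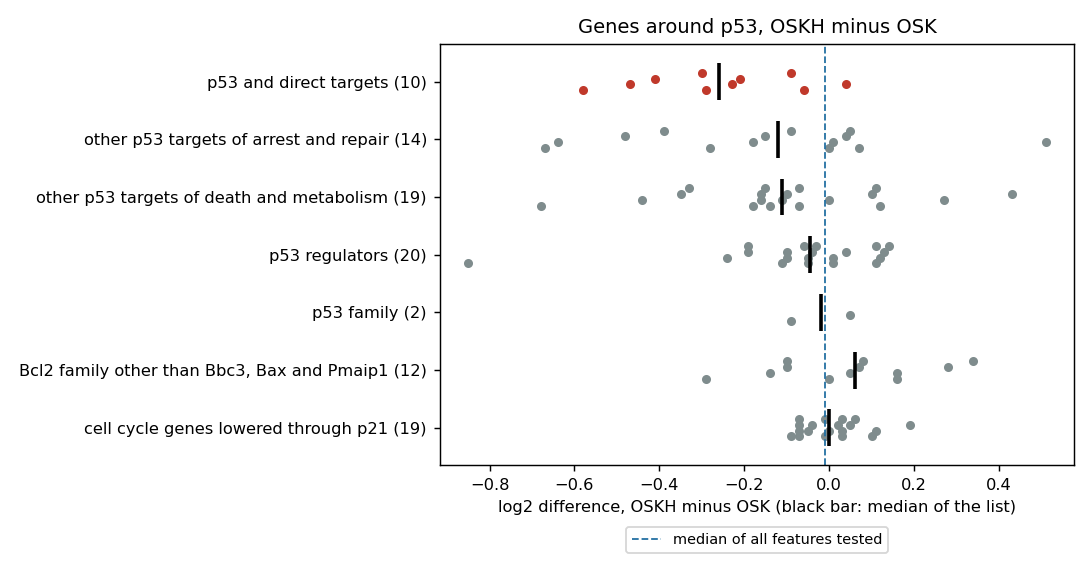
Log2 difference of OSKH minus OSK for the genes of each list, with the number of genes tested in brackets. Points are genes, black bars are list medians, and the dashed line is the median of all features at -0.01. The 10 genes have a median of -0.26, the further targets -0.12 and -0.11, and the cell cycle genes are gathered around 0.

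The genes whose mean-centred profile over the 8 arrays came closest to that of Cdkn1a, among 14380 named genes, were Ddit4l, Plk2, Caly, Smim24 and Nfatc2, with root mean square differences of 0.14 to 0.17 log2 units. Plk2 is itself a p53 target of the arrest and repair list. For Mdm2 the closest were Sntb2, Tmem254c, Mmp23, Mup6 and BB557941, each at 0.11. Mup6 and Tmem254c belong to families of near-identical copies, so their probes may not be specific. The profiles of Cdkn1a and Mdm2 had SDs of 0.51 and 0.30 over the arrays, and with 14380 genes and 8 arrays such closeness is a description only.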

How the data were processed

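Per the labels, total RNA was labelled with Cy3 for one-colour Agilent arrays. Spots were quantified with Agilent Feature Extraction (version 11.5.1.1 per the submitters' processing notes). The intensity used was, per the file headers, its processed signal, deposited array by array. The authors' deposited value table holds log2 values. They matched the log2 processed signal minus a constant per array to within 0.01 for 99.7% to 99.8% of probes, and column medians ran from -3.72 to -3.61, so its scale and direction are settled and genes were not centred. For this table, the sources used here name no software.

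Control spots and spots flagged as outliers were left out, spots were averaged per probe (55667 probes), and the main value was the log2 ratio of processed signal to the array's 75th percentile, which was a signal of 424 to 501. Of these probes, 51.4% to 59.0% were well above background, and 0 were saturated. The number of arrays limits the precision. RefSeq accessions, without versions, were matched to symbols of GRCm38.p6, which named 27650 probes. A feature was tested if a probe was well above background on 3 or more of the 8 arrays, and the brightest probe stood for a gene. The 10 genes had 13 probes, all well above background on all 8 arrays. Groups were taken from the sample titles and compared with limma 3.58.1 in R 4.3.3 (lmFit, eBayes, Benjamini-Hochberg over 22685 features, 5 residual and 1.85 prior degrees of freedom). The fit was also run on simulated data. The outcome is not reported here, so the power to call differences of the size seen is not stated.

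The 10 genes and the lists were chosen with earlier results of these data known. The naming rule takes all 10 genes and, from each other list, up to 2 higher and 2 lower genes with the smallest p for OSKH minus OSK. For the ESC comparisons it takes genes past the threshold, of which there were 0. Likeness of profile was the root mean square difference of centred profiles over 8 arrays, for the 5 closest genes. Deviations of same-numbered OSKH and OSK arrays from their group means correlated at 0.47, 0.26 and 0.45, so array numbers 1 to 3 were treated as pairs in an alternative. This pairing comes from the data and from a shared slide column, not from a stated culture or day. Alternatives changed the scaling, background correction (normexp with offset 50 on the median spot signal, since no mean signal was used here), dim-probe filter, probe choice, slide row and arrays used.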

Additional observations from a re-analysis of the deposited data

Results flagged for a closer look

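Aen, the apoptosis-enhancing nuclease, stood at 6.15 on OSKH 2, with the other 3 OSKH arrays all at 6.07. OSKH 2 was flagged because its gap to the nearest array was 0.963 of the whole range of the group, above Dixon's critical value for 4 arrays. The OSKH arrays covered a range of less than 0.1 log2 units for this gene, and the OSK arrays ran from 6.10 to 6.22. Of the 10 genes looked at, this was 1, and chance flags about 5% of groups.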

How the results depend on the processing

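Under every alternative run, 0 of the 10 genes passed an adjusted p of 0.05 in any of the 3 comparisons. The median difference of the 10 genes kept its sign under every alternative. It moved by less than the SD between arrays (0.118) in 45 values and by more in 1, OSK minus ESC with slide row as a block (0.52). For OSKH minus OSK it ran from -0.35 to -0.18 when single arrays were left out. With the array number as a replicate block, which leaves out OSKH 4, it was -0.18, and the block changed no call. The number of features called was 0 except in 5 cases: 47 for OSKH minus OSK and 38 for OSK minus ESC with slide row as a block, 11 for OSKH minus ESC and 9 for OSK minus ESC without the filter on dim probes, and 1470 for OSKH minus OSK at an unadjusted p. With slide row as a block, both comparisons rest on OSKH 4, the only array that links the OSK arrays to those of row 1. What else lay behind these changes was not tested. Of the values of single genes, 440 kept their sign and 20 reversed. With slide row as a block, OSKH minus OSK was 0.09 for Trp53 and -0.29 for Pmaip1, OSKH minus ESC was -0.014 for Trp53, and OSK minus ESC was -0.10 for Trp53 and 0.0053 for Aen. With quantile normalization, Zmat3 was at 0.019 and Aen at 0.056 for OSKH minus ESC, and Aen at 0.12 for OSK minus ESC. With the 75th percentile over probes measured on all arrays, these were 0.016 for Zmat3 (OSKH minus ESC) and 0.033 for Aen (OSK minus ESC), which was 0.0068 with the mean of its probes. When single arrays were left out, Pmaip1 ran from -0.088 to 0.19 for OSKH minus OSK and from -0.024 to 0.24 for OSK minus ESC. For OSKH minus ESC, Zmat3 ran from -0.15 to 0.043, Bbc3 from -0.046 to 0.058 and Trp53 from -0.014 to 0.091, and for OSK minus ESC Aen ran from -0.054 to 0.0034. All 13 probes were well above background on every array, so signal over background does not limit these genes.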
